A study of Homo sapiens with 60 samples.

Results

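The genes described here make, conjugate and move bile acids, or regulate those steps. They were the 10 genes CYP7A1, CYP27A1, BAAT, ABCB11, ABCB4, SLC51A, SLC51B, NR1H4, NR0B2 and FGF19, taken by matching each symbol to its Ensembl ID among the 60675 genes of the count table. Of the 10, 8 had enough reads to be tested, among 16675 tested genes in all. ABCB11 and FGF19 did not pass the filter on low counts and are described by their counts only.

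Bile acids are made from cholesterol in hepatocytes. CYP7A1 (cholesterol 7 alpha-hydroxylase) opens the classic pathway and sets its rate, CYP27A1 (sterol 27-hydroxylase, a mitochondrial enzyme) opens the alternative pathway and also oxidizes the side chain, and BAAT joins the finished acid to glycine or taurine. ABCB11 (the bile salt export pump) and ABCB4 (which flops phosphatidylcholine into bile) act at the canalicular membrane, whereas SLC51A and SLC51B form the heteromer OST alpha-beta, which carries bile acids across the basolateral membrane. NR1H4 encodes FXR, the nuclear receptor for bile acids. In the liver FXR raises transcription of NR0B2, ABCB11, ABCB4 and both SLC51 genes. NR0B2 encodes SHP, a repressor that acts on CYP7A1, and FGF19, made mainly by ileal enterocytes, signals to hepatocytes through FGFR4 and KLB to lower CYP7A1.

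The cells were HepG2, an established human hepatocellular carcinoma line, treated for 24 h with herbal extracts made in ethanol and profiled by RNA sequencing in 60 libraries. Single herbs were Coptidis Rhizoma and Bupleuri Radix at 11.2, 56 and 280 µg/mL, and Aconiti Lateralis Radix Preparata, Cimicifugae Rhizoma, Citri Unshius Pericarpium and Zizyphi Fructus at 20, 100 and 500 µg/mL. The formulas Yijung-tang and Banhasasim-tang were also given at 20, 100 and 500 µg/mL. Each dose had 2 libraries for Coptidis, Zizyphi and Yijung-tang, 3 for Citri, Cimicifugae, Bupleuri and Aconiti, and 1 for Banhasasim-tang. The reference was 3 libraries of cells given vehicle (DMSO). Whether replicates came from separate cultures is not in the labels, and the spread that p-values measure may therefore be technical. Libraries are placed in sets here by the leading part of the sample name, which the titles do not explain. Titles name batch D for all 60 libraries. For the Coptidis and Zizyphi libraries, titles and descriptions give different batch letters. Vehicle formed a library set of its own, so that in any comparison with vehicle the set cannot be told apart from the treatment. Coptidis and Zizyphi shared a set, as did Citri and Cimicifugae, Bupleuri and Aconiti, and the 2 formulas.

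Promoter sequence was available from RefSeq (GRCh38.p14) for 6 of the 10 genes, in 7 windows, because BAAT has 2 start sites. The windows were searched for the inverted repeat bound by the FXR-RXR dimer, AGGTCANTGACCT, which reads the same on both strands, and for its single hexamer AGGTCA on either strand. The search for the repeat covered 250 bases before and 50 after each start site. That for the hexamer in these genes covered the 250 bases before it only. The upstream bases are shown for FXR itself and for the transporters that FXR is known to act on, 5′ to 3′ on the strand of the gene, with the closest match to the repeat (up to 2 mismatches) or the single hexamer in capitals.
ABCB11, chr2:169031325-169031574, minus strand: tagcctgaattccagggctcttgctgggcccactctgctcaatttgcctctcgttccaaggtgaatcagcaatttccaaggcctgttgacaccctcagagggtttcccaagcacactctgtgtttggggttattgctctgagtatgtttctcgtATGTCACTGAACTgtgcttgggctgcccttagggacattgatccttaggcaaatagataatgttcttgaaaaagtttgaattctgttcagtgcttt
SLC51B, chr15:65045137-65045386, plus strand: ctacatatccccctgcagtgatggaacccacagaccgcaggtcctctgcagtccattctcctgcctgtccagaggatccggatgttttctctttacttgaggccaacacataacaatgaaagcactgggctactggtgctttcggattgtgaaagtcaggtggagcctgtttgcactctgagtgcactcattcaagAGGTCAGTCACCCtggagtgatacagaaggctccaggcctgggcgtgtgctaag
SLC51A, chr3:196216284-196216533, plus strand: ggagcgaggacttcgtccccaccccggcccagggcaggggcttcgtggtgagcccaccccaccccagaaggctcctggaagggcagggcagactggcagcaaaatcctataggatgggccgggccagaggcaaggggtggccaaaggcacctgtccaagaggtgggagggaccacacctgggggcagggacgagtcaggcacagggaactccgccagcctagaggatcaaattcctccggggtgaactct
NR1H4, chr12:100503110-100503359, plus strand: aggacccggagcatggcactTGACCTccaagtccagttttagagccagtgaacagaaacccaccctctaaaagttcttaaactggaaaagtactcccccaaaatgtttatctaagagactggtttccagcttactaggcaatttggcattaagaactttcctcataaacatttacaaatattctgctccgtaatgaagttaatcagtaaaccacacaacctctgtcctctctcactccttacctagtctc
The ABCB11 and SLC51B windows each held a match with 2 mismatches to the repeat, at 96 to 84 and at 54 to 42 bases before the start site. A match with at most 2 mismatches was present in 1.12% of 35116 windows of the same length. The capitals in NR1H4 are the hexamer on the other strand, which begins 230 bases before the start site. On either strand 13.8% of windows held the hexamer, counted over the bases both before and after the start site. In SLC51B the hexamer lies within the repeat match. SLC51A has no capitals because its closest stretch had 4 mismatches, a limit that 52.8% of windows met. A match is a description of letters and not evidence of binding. Capitals mark closeness to the repeat or hexamer only, and sites that FXR is known to use were not marked.

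Library totals ran between 18015555 and 29549531 counts, so that 3 counts correspond to 0.101 to 0.168 CPM (counts per 1e+06, scaled by TMM). Albumin averaged 10769 CPM, AFP 4046 CPM and APOB 19320 CPM in vehicle libraries. Defining markers of cholangiocytes (KRT7, CFTR), leukocytes (PTPRC, CD3E), enterocytes (SI, LCT) and fibroblasts (COL1A2) averaged under 0.1 CPM over all libraries, while other markers of those lists were expressed. Of the 6 cholangiocyte markers 2 were under 0.1 CPM, and the list summed to 975 to 2098 CPM per library, with SPP1 at 663, SOX9 at 200, KRT19 at 188 and EPCAM at 139 CPM on average. Of 5 enterocyte markers 2 were under 0.1 CPM (sum 283 to 503 CPM, mostly VIL1), of 3 leukocyte markers 2 (sum 20.1 to 79.8 CPM, CD68 alone), of 4 fibroblast markers 1 (sum 37.3 to 71.0 CPM) and of 3 endothelial markers none (sum 2.76 to 7.01 CPM). The 11 hepatocyte markers summed to 27188 CPM in Coptidis libraries at 280 µg/mL, the lowest group, and to 43714 CPM in vehicle libraries, with 8 of the 11 called lower and 2 higher. The cholangiocyte list summed to 1947 CPM in the same Coptidis libraries and 1077 CPM in vehicle libraries (3 called higher, 1 lower), and CD68 carried the leukocyte list to 79.2 CPM with Coptidis against 30.8 CPM with vehicle. The enterocyte list summed to 308 CPM with Coptidis and 384 CPM with vehicle, and the fibroblast list to 68.4 CPM with Coptidis and 60.9 CPM with vehicle. The part of these lists in the Coptidis results was not tested. Vehicle libraries also stood apart in base composition: the rank correlation across genes between GC content and a library's deviation from the mean of all libraries was -0.306 to 0.356 in libraries of treated cells, against -0.463 to -0.394 in vehicle libraries. Outside that range was the Banhasasim-tang library at 20 µg/mL, at 0.744. One of the 3 Bupleuri libraries at 11.2 µg/mL (replicate 3) stood apart in transcript length, at -0.493 against -0.250 to 0.191 elsewhere, and results that rest on it are also given without it.

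Levels between genes were compared per kilobase of transcript. In vehicle cells CYP27A1 was the highest at 50.1 CPM per kb, followed by NR0B2 at 37.1 and NR1H4 at 25.3 CPM per kb. SLC51B had 6.77, ABCB4 4.00, SLC51A 2.31 and BAAT 0.983 CPM per kb. CYP7A1, which sets the rate of the classic pathway, had only 0.219 CPM per kb, FGF19 had 0.0124 CPM per kb and ABCB11 had no count. The enzyme of the alternative pathway and both nuclear receptors were well measured in these cells, while CYP7A1 rested on 13 to 18 counts per vehicle library.

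NR1H4, the bile acid receptor FXR (ENSG00000012504, GRCh38 chromosome 12, 100473708 to 100564413), fell at the high dose of 5 of the 7 replicated extracts and showed the widest change of the set. With Coptidis it had 74.7, 73.7 and 70.7 CPM in vehicle libraries, 49.6 and 47.3 CPM at 11.2 µg/mL, 21.9 and 27.1 CPM at 56 µg/mL, and 5.82 and 6.79 CPM at 280 µg/mL. No library of any Coptidis dose overlapped the next dose or vehicle. The log2 change against vehicle was -0.59 ± 0.07 (SE) at 11.2 µg/mL, -1.57 ± 0.08 at 56 µg/mL and -3.53 ± 0.09 at 280 µg/mL, the last an 11.5-fold lower level with an adjusted p of 2.1e-32. NR1H4 has a GC content of 40.6%. With GC and length offsets per library these changes were -0.41, -1.38 and -3.32 (adjusted p = 2.5e-07, 5.8e-24 and 2.7e-35). In bulk RNA a lower share of cells that express a gene and less of its RNA per cell cannot be told apart.

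Smaller changes of NR1H4 were called at other high doses. Bupleuri at 280 µg/mL gave 43.4, 40.6 and 45.7 CPM, a log2 change of -0.76 ± 0.06 (adjusted p = 8.3e-14), against the vehicle values above. Cimicifugae at 500 µg/mL gave 48.9, 49.3 and 52.8 CPM (log2 change -0.54 ± 0.06, adjusted p = 4.6e-09), all below vehicle. Aconiti lowered it at 2 doses, with 42.8, 47.2 and 52.3 CPM at 100 µg/mL and 51.6, 54.7 and 57.1 CPM at 500 µg/mL. The Aconiti log2 changes were -0.62 ± 0.06 and -0.42 ± 0.06 (adjusted p = 1.4e-10 and 9.8e-07), and the libraries of the middle and the top dose overlapped. Yijung-tang at 500 µg/mL gave 61.2 and 58.5 CPM and the smallest called change, -0.28 ± 0.07 (adjusted p = 0.0026). That call was lost without 1 of its own libraries, replicate 2 (log2 change -0.24, adjusted p = 0.087). Zizyphi and Citri libraries, pooled over all doses, spanned 66.2 to 75.9 CPM and overlapped the vehicle range. Citri at 500 µg/mL averaged 67.7 ± 1.01 CPM (SD, n = 3), below the lowest vehicle library at 70.7 CPM. None of the 6 comparisons of these 2 extracts with vehicle was called for NR1H4.

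NR0B2, which encodes the repressor SHP (ENSG00000131910, GRCh38 chromosome 1, 26911489 to 26913966), was called in 9 of 21 comparisons with vehicle, over 5 extracts, and was higher in each of the 9. With Coptidis it had 42.9, 39.8 and 46.0 CPM in vehicle libraries, 80.6 and 94.7 CPM at 11.2 µg/mL, 105 and 101 CPM at 56 µg/mL, and 96.7 and 109 CPM at 280 µg/mL. The 2 upper doses overlapped, and all Coptidis libraries lay above every vehicle library. The log2 changes were 1.03 ± 0.09, 1.27 ± 0.09 and 1.27 ± 0.09 from low to high dose (adjusted p = 1.7e-11, 1.5e-15 and 6.4e-16). At 11.2 µg/mL NR0B2 averaged 87.7 CPM and NR1H4 48.4 CPM, and at 280 µg/mL NR0B2 averaged 103 CPM and NR1H4 6.31 CPM.

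Bupleuri raised NR0B2 at 280 µg/mL to 85.9, 92.3 and 92.1 CPM, against 42.9, 39.8 and 46.0 CPM in vehicle libraries, a log2 change of 1.07 ± 0.09 (adjusted p = 6.2e-14). At 56 µg/mL the Bupleuri libraries averaged 47.9 CPM, which was not called. At 11.2 µg/mL they held 45.9, 50.5 and 69.7 CPM, the last being the library that stands apart, and the log2 change of 0.37 (adjusted p = 0.0023) was 0.17 (adjusted p = 0.12) without it. Aconiti gave 55.3 to 60.6 CPM at 100 µg/mL and 57.4 to 63.1 CPM at 500 µg/mL, all above vehicle (log2 changes 0.43 ± 0.09 and 0.48 ± 0.09, adjusted p = 0.00025 and 4.8e-05). Smaller rises were called for Zizyphi at 20 µg/mL (51.7 and 59.3 CPM, log2 change 0.37, adjusted p = 0.029) and Cimicifugae at 500 µg/mL (49.6 to 54.0 CPM, log2 change 0.27, adjusted p = 0.022). NR0B2 has a GC content of 59.3%, and with GC and length offsets per library the rises for Bupleuri at 11.2 µg/mL (0.12, adjusted p = 0.18), Zizyphi (0.24, adjusted p = 0.057) and Cimicifugae (0.10, adjusted p = 0.28) were no longer called, and that of Aconiti at 500 µg/mL was 0.31 (adjusted p = 5.3e-05). Leaving out 1 library also ended the Zizyphi call in 4 of 6 fits (0.27 to 0.47, adjusted p = 0.10 to 0.27, without vehicle replicate 1 or 2 or either Zizyphi library) and the Cimicifugae call in 3 of 7 (0.22 to 0.27, adjusted p = 0.057 to 0.13, without vehicle replicate 1 or 2 or Cimicifugae replicate 1). All Zizyphi libraries, at 48.0 to 59.3 CPM, lay above every vehicle library. Without the Bupleuri library that stands apart, which also enters the shared spread, NR0B2 was called higher with Zizyphi at each dose. The log2 changes were then 0.24, 0.33 and 0.37 at 500, 100 and 20 µg/mL (adjusted p = 0.024, 0.0036 and 0.0012). With GC and length offsets, Zizyphi at 500 and 100 µg/mL gave 0.16 and 0.22 (adjusted p = 0.27 and 0.097). NR0B2 lies opposite NUDC, whose level was 212 CPM with Coptidis and 213 CPM with Bupleuri at 280 µg/mL against 198 CPM in vehicle cells, and the strand setting used in counting is not stated.

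**Figure D1:**
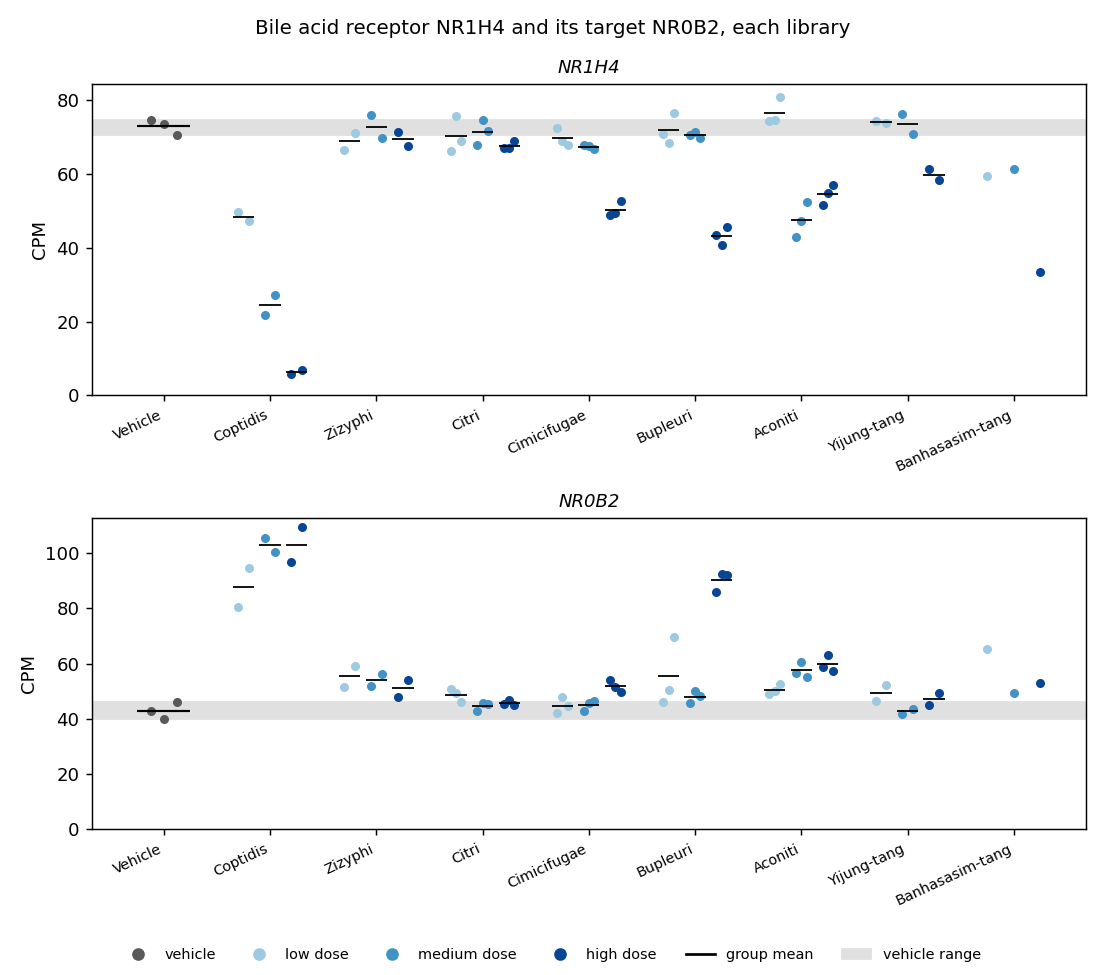
CPM (TMM-scaled) of NR1H4 and NR0B2 in each of the 60 libraries (points, coloured by dose), with vehicle at the left, each extract's doses running low to high, lines at group means and a grey band over the vehicle range. NR1H4 reaches 5.82 and 6.79 CPM at 280 µg/mL of Coptidis, while NR0B2 stands above 80 CPM at all 3 Coptidis doses and above 85 CPM at 280 µg/mL of Bupleuri.

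FGF19 (ENSG00000162344), the hormone that lowers CYP7A1, had 32 counts in all 60 libraries together. It was at 0 in 33 libraries and reached 2 counts at most, so that every library lay under the floor of 3 counts and no difference was detectable at this depth.

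SLC51A, the alpha subunit of the basolateral bile acid carrier (ENSG00000163959, GRCh38 chromosome 3, 196211487 to 196243178), rose with Cimicifugae, Coptidis and Bupleuri. With Cimicifugae it had 3.14, 3.34 and 3.65 CPM in vehicle libraries, 4.10, 4.38 and 4.10 CPM at 20 µg/mL, 4.41, 4.45 and 5.03 CPM at 100 µg/mL and 6.41, 7.35 and 7.07 CPM at 500 µg/mL. The groups did not overlap at any step of that series. The log2 change was 1.04 ± 0.11 at 500 µg/mL (adjusted p = 2.6e-09) and 0.46 ± 0.12 at 100 µg/mL (adjusted p = 0.0094), a call lost without vehicle replicate 1 or without replicate 3 of that dose (0.41 and 0.39, adjusted p = 0.067 and 0.077). Coptidis gave 5.77 CPM in both libraries at 280 µg/mL (log2 change 0.78 ± 0.14, adjusted p = 2.4e-06) and stayed at 2.85 to 3.68 CPM at the lower doses, overlapping vehicle. Bupleuri gave 4.46, 4.18 and 5.07 CPM at 280 µg/mL (log2 change 0.43 ± 0.12, adjusted p = 0.0039). SLC51A shares its locus with PCYT1A on the opposite strand, which averaged 94.6 CPM with Coptidis, 79.0 CPM with Cimicifugae and 86.9 CPM with Bupleuri at the high dose against 72.5 CPM in vehicle cells. Its part in the SLC51A counts was not tested.

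SLC51B, the beta subunit that the carrier needs to reach the membrane (ENSG00000186198, GRCh38 chromosome 15, 65045370 to 65053396), was not called where SLC51A rose. It had 6.17, 6.17 and 6.48 CPM with Cimicifugae at 500 µg/mL and 6.44 and 8.58 CPM with Coptidis at 280 µg/mL, against 6.20, 6.15 and 6.74 CPM in vehicle libraries. None of its 21 comparisons with vehicle was called. Its 1 call was between doses of Aconiti, with 4.95, 6.51 and 5.60 CPM at 500 µg/mL against 8.53, 6.91 and 8.17 CPM at 20 µg/mL (log2 change -0.48 ± 0.13, adjusted p = 0.010), a call lost without replicate 1 of the high or of the low dose (-0.39 and -0.42, adjusted p = 0.099 and 0.065).

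ABCB4, the canalicular phospholipid floppase (ENSG00000005471, GRCh38 chromosome 7, 87401697 to 87480435), fell at the high dose of 4 extracts. It had 16.0, 16.5 and 18.7 CPM in vehicle libraries, and with Coptidis 15.7 CPM in both libraries at 11.2 µg/mL, 12.0 and 12.9 CPM at 56 µg/mL and 10.1 and 8.89 CPM at 280 µg/mL. All Coptidis libraries lay below vehicle. The Coptidis log2 changes were -0.44 ± 0.11 at 56 µg/mL (adjusted p = 0.00046) and -0.84 ± 0.11 at 280 µg/mL (adjusted p = 1.2e-08), the lowest dose not being called. Bupleuri at 280 µg/mL gave 11.0, 10.6 and 10.0 CPM (log2 change -0.70 ± 0.09, adjusted p = 5.3e-08). Aconiti gave 12.8 to 12.9 CPM at 100 µg/mL and 13.1 to 15.5 CPM at 500 µg/mL (log2 changes -0.41 and -0.28, adjusted p = 0.00089 and 0.023). Yijung-tang at 500 µg/mL gave 12.9 and 13.4 CPM (log2 change -0.37 ± 0.10, adjusted p = 0.0094). Leaving out 1 library ended the call at 500 µg/mL of Aconiti in 3 of 7 fits (-0.26 to -0.21, adjusted p = 0.066 to 0.15, without vehicle replicate 3 or Aconiti replicate 1 or 3) and that of Yijung-tang in 3 of 6 (-0.40 to -0.30, adjusted p = 0.057 to 0.094, without vehicle replicate 3 or either Yijung-tang library).

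ABCB11, the bile salt export pump (ENSG00000073734, GRCh38 chromosome 2, 168915498 to 169031324), was close to unmeasured. It had 14 counts in all, spread over 10 of 60 libraries, with none in vehicle libraries, 2 in each Coptidis library at 280 µg/mL and 3 at most in any library. These values are at or under the floor of 3 counts, so no difference was detectable.

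CYP7A1 (ENSG00000167910, chromosome 8) had 543 counts over all libraries, and its log2 change against vehicle was below 0 in 20 of 21 comparisons, of which 5 were called. All 21 used the same vehicle libraries, so these signs are not independent. None of the 7 comparisons of the high with the low dose of an extract was called for CYP7A1. In counts per library, vehicle had 13, 18 and 13, Coptidis had 9 and 5 at 11.2 µg/mL, 5 and 1 at 56 µg/mL, and 4 and 0 at 280 µg/mL. Coptidis was below vehicle in each library of all 3 doses, and called at 56 µg/mL (log2 change -2.22 ± 0.63, adjusted p = 0.0029) and 280 µg/mL (-2.58 ± 0.70, adjusted p = 0.0011). Those values depend on single libraries: without the library at 0 the high-dose change was -1.61 (adjusted p = 0.061), and without the other library the group had no count, so that the fitted -7.05 is no measure of size. At 56 µg/mL it was -3.74 without replicate 2 and -1.48 without replicate 3 (adjusted p = 0.0031 and 0.092). Bupleuri at 280 µg/mL had 2, 5 and 5 counts (log2 change -1.99 ± 0.52, adjusted p = 0.0017). Aconiti had 3, 5 and 9 counts at 20 µg/mL and 8, 5 and 8 at 100 µg/mL, called at -1.62 ± 0.48 and -1.29 ± 0.46 (adjusted p = 0.024 and 0.040), and 6, 8 and 11 counts at 500 µg/mL, which was not called. Leaving out 1 library ended the Aconiti call at 20 µg/mL in 3 of 7 fits (-1.62 to -1.27, adjusted p = 0.066 to 0.15, without vehicle replicate 2 or Aconiti replicate 1 or 2) and that at 100 µg/mL without each of its own 3 libraries and each vehicle library (-1.41 to -1.11, adjusted p = 0.053 to 0.15). CYP7A1 has a GC content of 38.3%. With GC and length offsets the Aconiti changes were -1.52 at 20 µg/mL (adjusted p = 0.045) and -1.19 at 100 µg/mL (adjusted p = 0.058). DESeq2 did not call the latter either (-1.31, adjusted p = 0.054). With the offsets, Coptidis at 56 and 280 µg/mL and Bupleuri at 280 µg/mL gave -2.01, -2.36 and -1.85 (adjusted p = 0.0071, 0.0030 and 0.0030). Zizyphi at 500 µg/mL, with 16 and 24 counts, was the group with a mean above vehicle.

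CYP27A1 (ENSG00000135929, GRCh38 chromosome 2, 218781749 to 218815293) varied little between groups. Its replicated group means lay between 103 and 147 CPM, against 129 ± 4.80 CPM in vehicle cells (SD, n = 3). It had 124, 134 and 128 CPM in vehicle libraries, and with Coptidis 136 and 159 CPM at 11.2 µg/mL, 144 and 124 CPM at 56 µg/mL and 99.0 and 107 CPM at 280 µg/mL. The lowest dose was called higher (log2 change 0.20 ± 0.07, adjusted p = 0.021) and the highest lower (-0.32 ± 0.07, adjusted p = 9.9e-05). CYP27A1 has a GC content of 59.6%, and with GC and length offsets the change at 11.2 µg/mL was -0.01 (adjusted p = 0.95) and at 280 µg/mL -0.48 (adjusted p = 4.1e-12). The call at 11.2 µg/mL was also lost without vehicle replicate 1 or Coptidis replicate 3 (0.17 and 0.08, adjusted p = 0.080 and 0.58), and was 0.31 without Coptidis replicate 2. Aconiti at 100 µg/mL gave 115, 114 and 109 CPM, all below vehicle (log2 change -0.19 ± 0.06, adjusted p = 0.023). That call was lost without vehicle replicate 2 or 3 or Aconiti replicate 3 (-0.19 to -0.16, adjusted p = 0.051 to 0.11). With GC and length offsets CYP27A1 was also called lower by edgeR in comparisons with vehicle that had no call without them. These were Bupleuri at 280 µg/mL (-0.23, adjusted p = 1.3e-05), Aconiti at 500 µg/mL (-0.18, adjusted p = 0.0012) and Coptidis at 56 µg/mL (-0.12, adjusted p = 0.029).

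BAAT, the conjugating enzyme (ENSG00000136881, GRCh38 chromosome 9, 101360417 to 101383519), was lower with Yijung-tang. It had 3.31, 3.38 and 3.27 CPM in vehicle libraries, 3.01 and 2.43 CPM at 20 µg/mL, 2.47 and 2.00 CPM at 100 µg/mL and 1.33 and 1.82 CPM at 500 µg/mL. Every Yijung-tang library lay below vehicle, and the top dose was called (log2 change -1.07 ± 0.21, adjusted p = 0.00016). Citri gave 3.10, 1.64 and 2.16 CPM at 100 µg/mL and 2.27, 1.93 and 2.79 CPM at 500 µg/mL (log2 changes -0.53 and -0.52, adjusted p = 0.037 in both). Bupleuri at 11.2 µg/mL gave 2.40, 2.37 and 2.48 CPM (log2 change -0.46, adjusted p = 0.046). The Citri and Bupleuri calls were lost with GC and length offsets (adjusted p = 0.14, 0.15 and 0.19). The Bupleuri call was also lost without each of its 3 libraries and each vehicle library (-0.48 to -0.45, adjusted p = 0.061 to 0.10). The Citri calls were lost without each vehicle library, and without replicate 2 or 3 at 100 µg/mL (-0.54 to -0.34, adjusted p = 0.075 to 0.26) or replicate 1 or 2 at 500 µg/mL (-0.53 to -0.40, adjusted p = 0.069 to 0.18), while without replicate 1 the change at 100 µg/mL was -0.80.

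**Figure D2:**
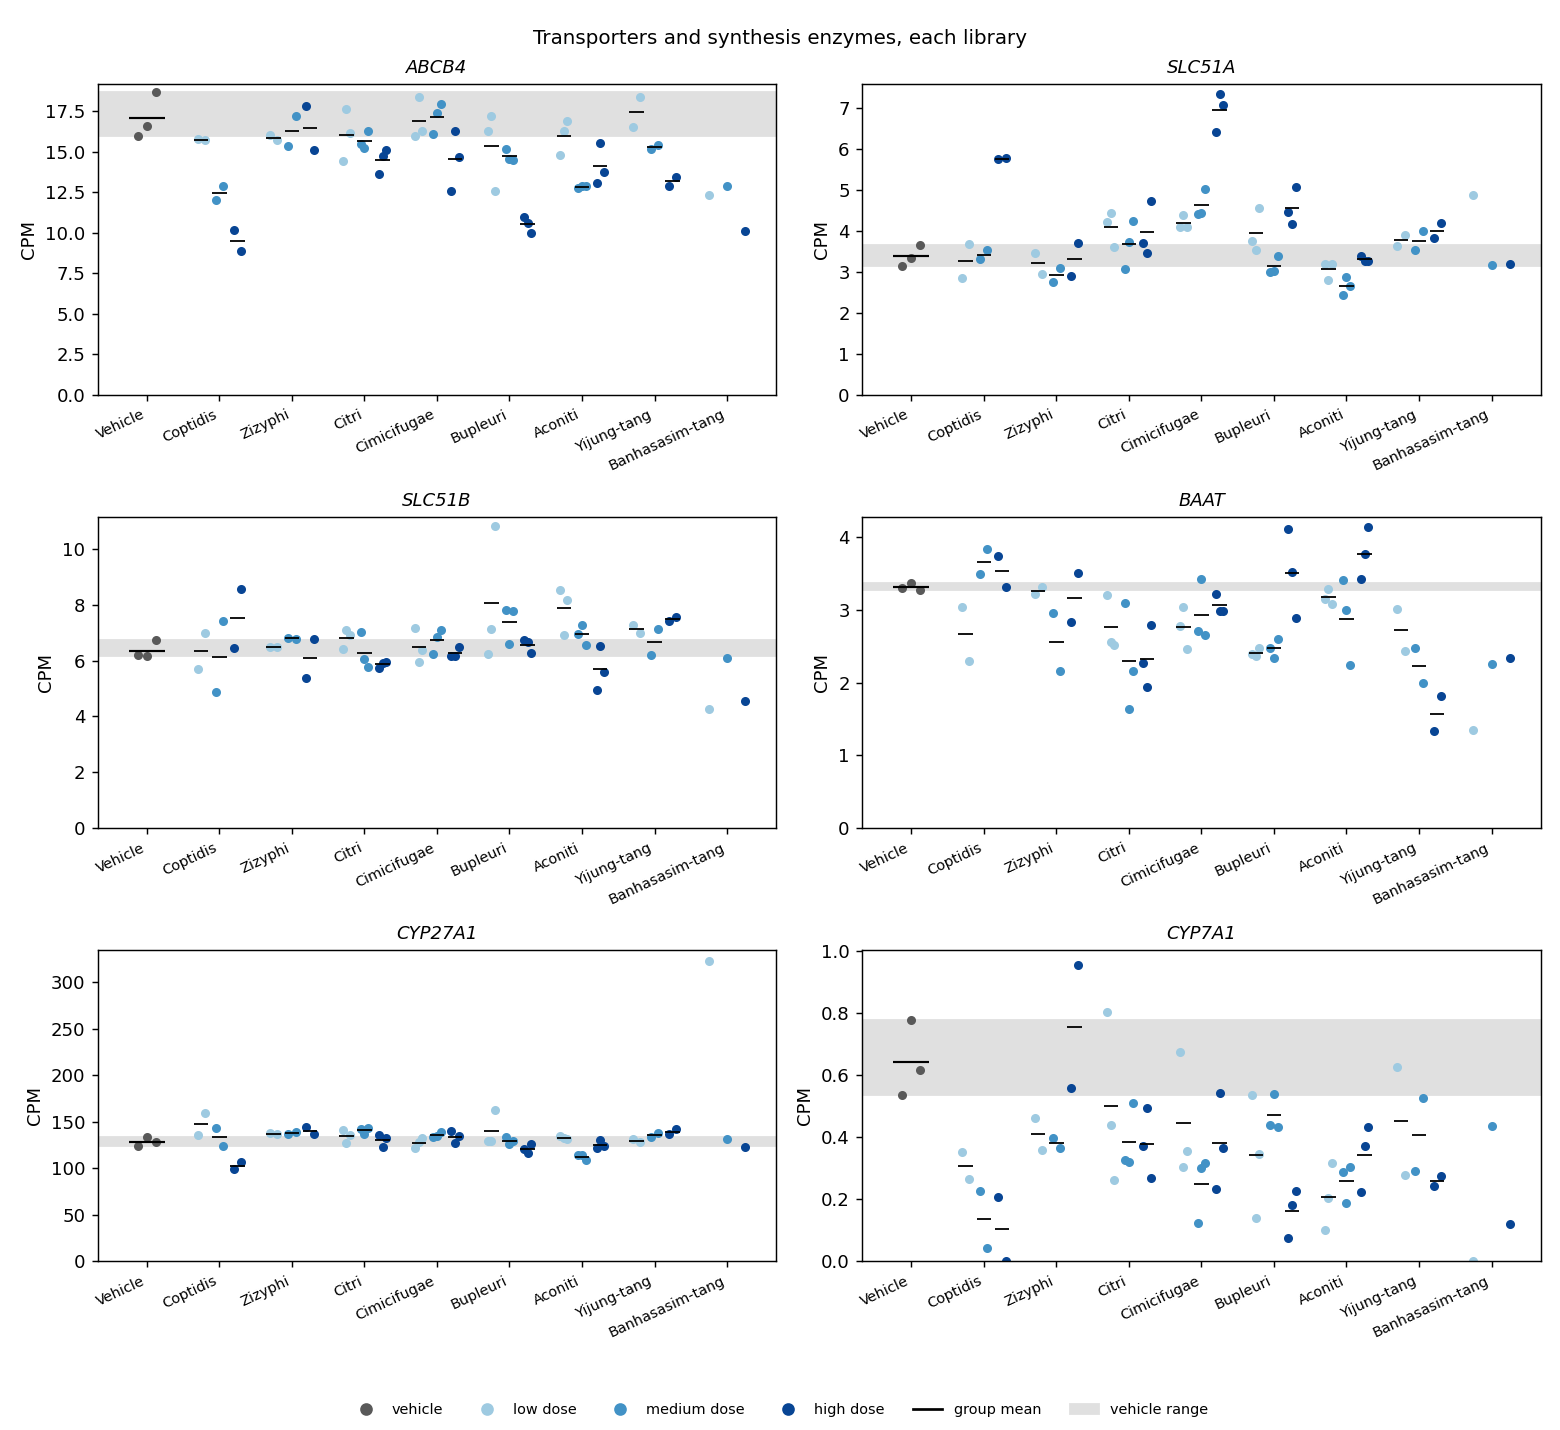
CPM (TMM-scaled) of the 3 tested transport genes and the 3 synthesis genes in each library (points, coloured by dose), vehicle at the left, doses running low to high within each extract, lines at group means and a grey band over the vehicle range. SLC51A peaks at 6.41 to 7.35 CPM with 500 µg/mL of Cimicifugae, while SLC51B stays near its vehicle range of 6.15 to 6.74 CPM there.

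Counted over the 8 tested genes, Coptidis had the most calls. At 280 µg/mL 6 of 8 were called (SLC51A and NR0B2 higher, CYP7A1, CYP27A1, ABCB4 and NR1H4 lower), at 56 µg/mL 4 and at 11.2 µg/mL 3. The share of all tested genes that were called was 67.5% at 280 µg/mL, 50.7% at 56 µg/mL and 33.2% at 11.2 µg/mL, so that the members' counts lie near the background. With Bupleuri 5 of 8 were called at 280 µg/mL (SLC51A and NR0B2 higher, CYP7A1, ABCB4 and NR1H4 lower) beside 38.9% of all genes, none at 56 µg/mL beside 10.9%, and 2 at 11.2 µg/mL beside 22.3%. With Aconiti 3 were called at 500 µg/mL beside 23.2% of all genes, 5 at 100 µg/mL beside 20.9% and 1 at 20 µg/mL beside 9.90%. Cimicifugae had 3 at 500 µg/mL beside 22.2%, 1 at 100 µg/mL beside 10.7% and none at 20 µg/mL beside 6.10%.

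Yijung-tang had 3 called at 500 µg/mL, all lower (BAAT, ABCB4, NR1H4), beside 17.3% of all genes, and none at 100 µg/mL beside 6.25% or at 20 µg/mL beside 1.69%. Citri had BAAT alone at 500 µg/mL beside 14.2% of all genes and at 100 µg/mL beside 10.5%, and none at 20 µg/mL beside 15.9%. Zizyphi had none at 500 µg/mL beside 3.63% or at 100 µg/mL beside 1.93%, and NR0B2 at 20 µg/mL beside 2.79%. In the 7 comparisons with vehicle that had no call by edgeR, 0 to 2 members had an unadjusted p under 0.05, and DESeq2 called 1 member in all, NR0B2 with Zizyphi at 100 µg/mL. Among these, edgeR without the Bupleuri library that stands apart called NR0B2 with Zizyphi at 500 and 100 µg/mL (adjusted p = 0.024 and 0.0036). It also called NR0B2 with Citri at 20 µg/mL (adjusted p = 0.033) and BAAT with Yijung-tang at 100 µg/mL (adjusted p = 0.036). Over the 7 extracts at the high dose 21 of 56 tests of members were called, which is 37.5% beside 26.7% of the tests of all genes. The median log2 change of the 8 genes at the high dose was -0.11 for Coptidis, -0.02 for Bupleuri and -0.10 for Aconiti, near the medians over all genes of 0.00, 0.00 and 0.02, because members moved in both directions.

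**Figure D3:**
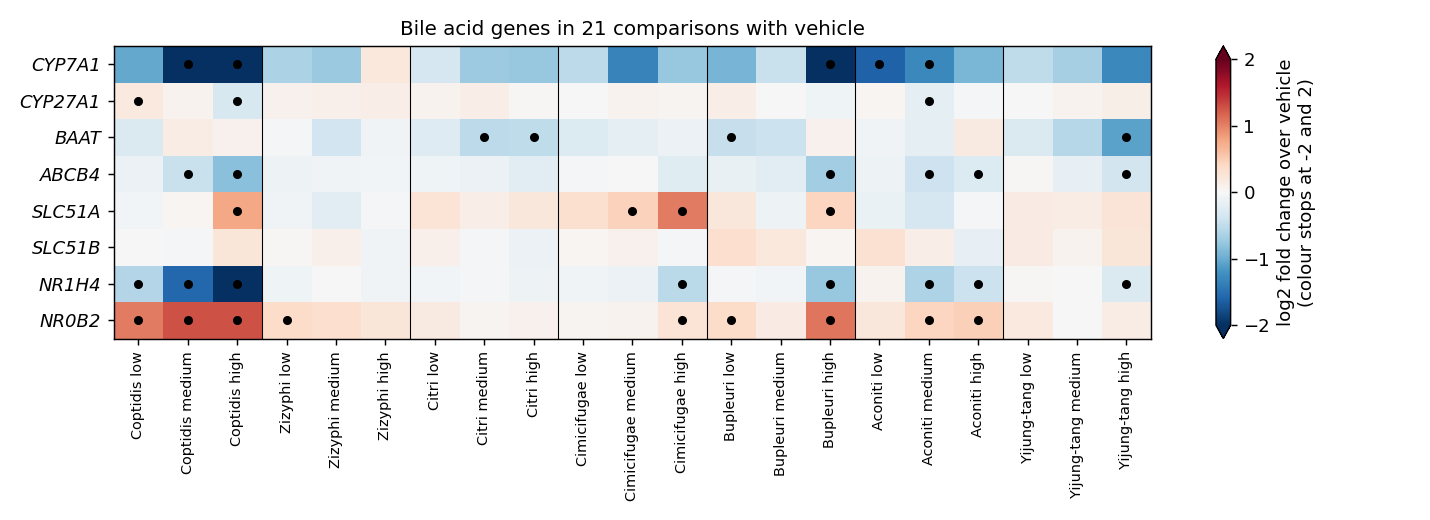
Log2 fold change against vehicle of the 8 tested genes in the 21 comparisons of 7 extracts and 3 doses (colour, which stops at 2 in either direction), with dots on calls at an adjusted p under 0.05. NR1H4 is lower and NR0B2 higher in the Coptidis columns and at the high dose of Bupleuri and Aconiti.

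The high and the low dose of an extract share a set, so that comparison does not involve the vehicle libraries. With Coptidis, 280 against 11.2 µg/mL, 5 of 8 members were called beside 60.2% of all genes. NR1H4 averaged 6.31 ± 0.688 CPM at the high and 48.4 ± 1.67 CPM at the low dose (SD, n = 2 each), a log2 change of -2.94 ± 0.10 (adjusted p = 4.3e-28). SLC51A differed by 0.84 ± 0.15, ABCB4 by -0.73 ± 0.12 and CYP27A1 by -0.52 ± 0.08 on the log2 scale (adjusted p = 6.0e-06, 1.8e-06 and 1.1e-07). NR0B2 differed by only 0.23 ± 0.10 (adjusted p = 0.045), and that call was lost without replicate 2 of the low or replicate 3 of the high dose (0.11 and 0.14, adjusted p = 0.46 and 0.36).

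With Bupleuri, 280 against 11.2 µg/mL, 5 of 8 members were called beside 40.2% of all genes. NR0B2 averaged 90.1 ± 3.64 CPM at the high and 55.4 ± 12.6 CPM at the low dose (SD, n = 3 each), a log2 change of 0.70 ± 0.08 (adjusted p = 3.3e-09), or 0.89 without the library that stands apart. NR1H4 differed by -0.74 ± 0.06 and ABCB4 by -0.55 ± 0.09 (adjusted p = 2.1e-13 and 6.1e-06), and without that library by -0.69 and -0.68. BAAT was higher at the high dose, at 0.55 ± 0.17 on the log2 scale (adjusted p = 0.0074), which was 0.42 (adjusted p = 0.076) without replicate 1 of the high dose and 0.56 (adjusted p = 0.013) without the library that stands apart. CYP27A1 differed by -0.22 ± 0.06 (adjusted p = 0.0038), which was -0.10 (adjusted p = 0.15) without the library.

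Cimicifugae, 500 against 20 µg/mL, had 2 members called beside 7.14% of all genes: SLC51A at 6.94 ± 0.485 CPM at the high against 4.19 ± 0.162 CPM at the low dose (log2 change 0.73 ± 0.11, adjusted p = 4.0e-06) and NR1H4 at 50.3 ± 2.13 CPM at the high against 69.7 ± 2.40 CPM at the low dose (-0.47 ± 0.06, adjusted p = 1.8e-07, SD, n = 3 each). Aconiti had 3 beside 14.6%: NR1H4 (-0.49 ± 0.06, adjusted p = 5.3e-08), SLC51B as above, and NR0B2 (0.24 ± 0.09, adjusted p = 0.048), whose call was lost without any 1 of the 6 libraries compared (0.20 to 0.28, adjusted p = 0.058 to 0.19). Yijung-tang had 3 beside 7.29%, all lower: BAAT (-0.77 ± 0.23, adjusted p = 0.026), ABCB4 (-0.40 ± 0.11, adjusted p = 0.019) and NR1H4 (-0.30 ± 0.07, adjusted p = 0.0066). The BAAT call was lost without replicate 1 of the high or of the low dose (-0.57 and -0.61, adjusted p = 0.33 and 0.29). The ABCB4 call was lost without either high-dose library or replicate 2 of the low dose (-0.43 to -0.32, adjusted p = 0.079 to 0.26), and the NR1H4 call without either low-dose library or replicate 2 of the high dose (-0.30 to -0.26, adjusted p = 0.053 to 0.12). Citri had no member called by edgeR beside 0.780% of all genes, and Zizyphi none beside 0.00600%, which is 1 gene (461 genes had an unadjusted p under 0.05). No member reached an unadjusted p under 0.05 in either, and DESeq2 called none. In all, 18 of 56 tests of members between high and low dose were called, or 32.1% beside 18.6% of the tests of all genes, and NR1H4 was lower at the high dose in each of the 5 extracts with any call.

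**Figure D4:**
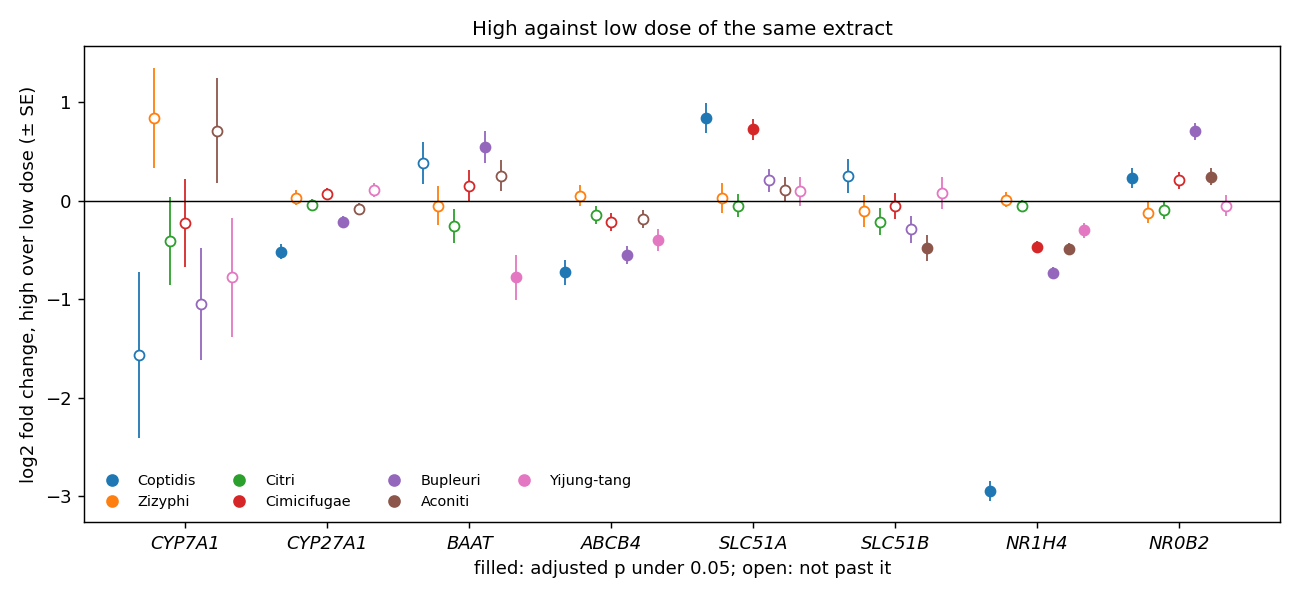
Log2 fold change of the high over the low dose for the 8 tested genes in 7 extracts, with bars of 1 SE and filled points for calls at an adjusted p under 0.05. NR1H4 lies at -2.94 with Coptidis and between -0.74 and -0.30 with Bupleuri, Aconiti, Cimicifugae and Yijung-tang.

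Extracts of the same set were compared at their high doses, where doses differed for Coptidis (280 µg/mL) and Zizyphi (500 µg/mL) and for Bupleuri (280 µg/mL) and Aconiti (500 µg/mL). Against Zizyphi, Coptidis differed in 6 of 8 members beside 64.4% of all genes, with NR1H4 at 6.31 CPM in Coptidis against 69.5 CPM in Zizyphi cells (log2 difference -3.45 ± 0.10, adjusted p = 2.9e-31) and NR0B2 at 103 CPM in Coptidis against 51.0 CPM in Zizyphi cells (1.02 ± 0.10, adjusted p = 9.6e-12). SLC51A was higher in Coptidis (0.82), and CYP7A1 (-2.80, or -1.83 without the Coptidis library at 0), CYP27A1 (-0.44) and ABCB4 (-0.79) were lower. Citri, at the same 500 µg/mL as Cimicifugae, differed from it in 2 members beside 4.07% of all genes. SLC51A stood at 3.97 ± 0.667 CPM in Citri against 6.94 ± 0.485 CPM in Cimicifugae cells (log2 difference -0.81 ± 0.11, adjusted p = 1.4e-06), and NR1H4 at 67.7 ± 1.01 CPM in Citri against 50.3 ± 2.13 CPM in Cimicifugae cells (0.43 ± 0.06, adjusted p = 2.6e-06, SD, n = 3 each). Bupleuri differed from Aconiti in 4 members beside 32.6% of all genes: NR0B2 (0.59) and SLC51A (0.46) were higher and ABCB4 (-0.42) and NR1H4 (-0.34) lower in Bupleuri.

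Whether the change between high and low dose itself differed within a set was tested as an interaction, a test added after the data had been seen. It was called for 6 of 8 members between Coptidis and Zizyphi beside 49.3% of all genes, for 2 between Citri and Cimicifugae beside 1.33%, and for 3 between Bupleuri and Aconiti beside 24.4%. NR1H4 was called in each of the 3 pairs, with differences of -2.95 ± 0.13 for Coptidis over Zizyphi, 0.42 ± 0.09 for Citri over Cimicifugae and -0.25 ± 0.09 for Bupleuri over Aconiti on the log2 scale. The last of these was lost in 7 of 12 fits that left out 1 library (-0.25 to -0.20, adjusted p = 0.055 to 0.11), among them the fit without the Bupleuri library that stands apart (-0.20, adjusted p = 0.075).

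Banhasasim-tang had 1 library per dose, so that its values have no replicate check and no test. NR1H4 was at 59.4 CPM at 20 µg/mL, 61.4 CPM at 100 µg/mL and 33.4 CPM at 500 µg/mL, the last 2.18-fold below the vehicle mean of 73.0 CPM. CYP7A1 had 3 counts at 500 µg/mL, a ratio to vehicle of 0.188 (95% counting interval 0.0373 to 0.587). These 2 of 8 members were past 2-fold and outside the vehicle range at 500 µg/mL beside 4.64% of all genes, and none was at 100 µg/mL beside 2.96%. At 20 µg/mL 3 members were, beside 36.8% of all genes, in the library whose GC correlation was 0.744. There CYP27A1 stood at 323 CPM (2.51-fold higher than vehicle), BAAT at 1.35 CPM (2.38-fold lower), and CYP7A1 at 0 counts (at least 3.83-fold lower, with the floor of 3 counts in that library). The part of base composition in those values was not tested.

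Other genes of the pathway were taken from 4 lists of 54 genes, of which 44 were tested. Their counts of calls at the high dose stand beside shares of all genes called of 67.5% with Coptidis, 38.9% with Bupleuri, 23.2% with Aconiti, 22.2% with Cimicifugae, 17.3% with Yijung-tang, 14.2% with Citri and 3.63% with Zizyphi, and no test of a list against other genes was made. Of 10 tested enzymes and carriers of bile acid synthesis, all 10 were called lower with Coptidis at 280 µg/mL, with a median log2 change of -0.96 beside 0.00 over all genes. AKR1D1, the steroid 5 beta-reductase of both pathways, averaged 1.13 ± 0.0868 CPM with Coptidis against 14.4 ± 0.943 CPM in vehicle cells (SD, n = 2 and 3), a log2 change of -3.67 ± 0.15 (adjusted p = 2.1e-25). CYP8B1, the 12 alpha-hydroxylase that makes cholic acid, averaged 0.465 CPM with Coptidis against 2.58 CPM in vehicle cells (log2 change -2.45 ± 0.31, adjusted p = 1.7e-09). Bupleuri at 280 µg/mL had 7 of the 10 lower and 2 higher, with AKR1D1 at 4.94 CPM (-1.56) and CYP8B1 at 1.65 CPM (-0.63). Lower calls with the other extracts were 5 with Aconiti, 4 each with Cimicifugae and Yijung-tang, 2 with Citri and none with Zizyphi, beside 1, 2, 2, 2 and 1 higher calls. With GC and length offsets the list had 10 lower calls with Coptidis, 6 with Bupleuri, 4 with Aconiti, 2 each with Cimicifugae and Yijung-tang and 1 with Citri. Without the Bupleuri library that stands apart, lower and higher calls were 5 and 3 with Aconiti and 5 and 2 with Cimicifugae. Under that setting they were 4 and 3 with Yijung-tang and 4 and 2 with Citri. AKR1D1 was lower at the high dose of 6 of 7 extracts against vehicle, and lower at the high than at the low dose of 5.

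Among 10 tested transporters and their partners, 3 efflux pumps of the ABC family rose with several extracts. ABCC2 (the canalicular conjugate pump MRP2) averaged 1266 ± 63.5 CPM with Coptidis and 858 ± 5.02 CPM with Bupleuri at 280 µg/mL, against 351 ± 0.635 CPM in vehicle cells (log2 changes 1.86 and 1.29, adjusted p = 1.9e-20 and 2.1e-15). It was also higher with Cimicifugae (613 CPM), Yijung-tang (611 CPM) and Aconiti (504 CPM) at 500 µg/mL. ABCC3 (the basolateral pump MRP3) was higher at the high dose of 6 of 7 extracts against vehicle, and ABCG2 (BCRP) of 5, with 53.2 ± 0.617 CPM in Coptidis against 13.9 ± 0.422 CPM in vehicle cells (log2 change 1.94, adjusted p = 4.7e-29). High exceeded low dose for ABCC2 in 5, ABCC3 in 5 and ABCG2 in 6 extracts. SLCO2B1, an uptake carrier, averaged 11.6 CPM with Coptidis and 17.5 CPM with Bupleuri against 32.8 CPM in vehicle cells (log2 changes -1.50 and -0.91, adjusted p = 2.5e-19 and 2.8e-14), and was also lower with Yijung-tang (24.5 CPM) and Aconiti (28.6 CPM). The list's calls against vehicle were 3 higher and 3 lower with Coptidis, 4 and 3 with Bupleuri, 4 and 1 with Aconiti and with Yijung-tang, 3 and 0 with Cimicifugae, 1 and 0 with Citri, and none with Zizyphi. With GC and length offsets they were 3 and 4 with Coptidis, 3 and 3 with Aconiti, 6 and 2 with Cimicifugae and 5 and 1 with Yijung-tang. Without the Bupleuri library that stands apart, which also enters the shared spread, they were 4 and 4 with Aconiti and 6 and 1 with Cimicifugae. Under that setting they were also 5 and 3 with Bupleuri, 3 and 0 with Citri and 2 and 0 with Zizyphi.

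Of 13 other regulators, Coptidis at 280 µg/mL had 6 higher and 4 lower. KLB, the co-receptor for FGF19, averaged 26.5 ± 1.05 CPM in Coptidis against 205 ± 4.92 CPM in vehicle cells (log2 change -2.95 ± 0.09, adjusted p = 3.7e-31), and was also lower with Bupleuri (140 CPM, -0.56), Yijung-tang (174 CPM, -0.24) and Cimicifugae (178 CPM, -0.21). MAFG, a repressor of bile acid synthesis genes, averaged 217 ± 4.91 CPM in Coptidis against 59.4 ± 1.28 CPM in vehicle cells (1.87 ± 0.06, adjusted p = 1.4e-28), and was also higher with Bupleuri (101 CPM, log2 change 0.76), Cimicifugae (75.3 CPM, 0.34), Yijung-tang (73.1 CPM, 0.30) and Aconiti (67.4 CPM, 0.18). NR1I2, the xenobiotic receptor PXR, averaged 30.7 CPM with Coptidis, 20.6 CPM with Aconiti, 20.1 CPM with Bupleuri and 19.7 CPM with Cimicifugae against 16.2 CPM in vehicle cells (log2 changes 0.93, 0.35, 0.31 and 0.28). PPARGC1A, a coactivator, was higher with Aconiti (29.3 CPM) and lower with Coptidis (15.2 CPM) and Bupleuri (17.2 CPM), against 22.2 CPM in vehicle cells, and VDR, a receptor for lithocholic acid, was lower with Bupleuri (0.427 CPM, against 1.11 CPM in vehicle cells). FGFR4, the receptor that pairs with KLB, was lower with Coptidis (193 CPM, log2 change -0.78) and higher with Citri (378 CPM, 0.19), against 331 CPM in vehicle cells. HNF4A, a hepatocyte nuclear receptor, was higher at the high dose of 5 extracts, by 0.11 to 0.20 on the log2 scale. Higher and lower calls were 2 and 4 with Bupleuri, 4 and 1 with Aconiti and with Cimicifugae, 2 and 1 with Yijung-tang, 3 and 0 with Citri and 1 and 0 with Zizyphi (RXRA, the partner of FXR, 0.16). With GC and length offsets they were 5 and 5 with Coptidis, 2 and 6 with Bupleuri, 2 and 3 with Aconiti, 3 and 3 with Cimicifugae, 2 and 2 with Yijung-tang and 1 and 0 with Citri, so that the balance of directions in this list depended on that setting. Zizyphi had no call with those offsets. Without the Bupleuri library that stands apart, higher and lower calls were 4 and 3 with Aconiti, 5 and 0 with Citri and 2 and 0 with Zizyphi.

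Among 11 other FXR targets and genes of bile acid detoxification, lower and higher calls were 5 and 2 with Coptidis, 4 and 1 with Citri and with Cimicifugae, 3 and 1 with Bupleuri and with Yijung-tang and 1 and 0 with Aconiti, and Zizyphi had none. With GC and length offsets they were 6 and 2 with Coptidis, 4 and 2 with Aconiti, 4 and 0 with Cimicifugae, 3 and 0 with Yijung-tang and 1 and 0 with Citri. Without the Bupleuri library that stands apart, they were 5 and 1 with Citri and 4 and 1 with Bupleuri and with Yijung-tang. Under that setting they were 2 and 0 with Aconiti and 1 and 1 with Zizyphi. KNG1 (kininogen, a gene that FXR raises) averaged 0.801 ± 0.338 CPM with Coptidis and 2.67 ± 0.132 CPM with Bupleuri against 7.35 ± 0.508 CPM in vehicle cells (log2 changes -3.19 and -1.46). It was lower at the high dose of 6 of 7 extracts against vehicle, and lower at the high than at the low dose of 5. SDC1, of the same list, was called higher at the high dose of 4 of 7 extracts and lower with 1. The list was not split by the direction in which FXR acts on each gene, so its counts of calls do not measure FXR activity. APOC3, an apolipoprotein, was lower with Coptidis (11.7 CPM, log2 change -2.03) and Bupleuri (30.2 CPM, -0.67), against 47.9 CPM in vehicle cells. UGT2B4, which glucuronidates bile acids, was lower with Coptidis (1.03 CPM, log2 change -2.17), Yijung-tang (2.72 CPM), Cimicifugae (2.88 CPM), Citri (2.99 CPM) and Bupleuri (3.55 CPM), against 4.67 CPM in vehicle cells. UGT1A3 averaged 1.56 ± 1.33 CPM with Coptidis and was at 0 in vehicle libraries, and its counts are uncertain because UGT1A genes share exons.

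**Figure D5:**
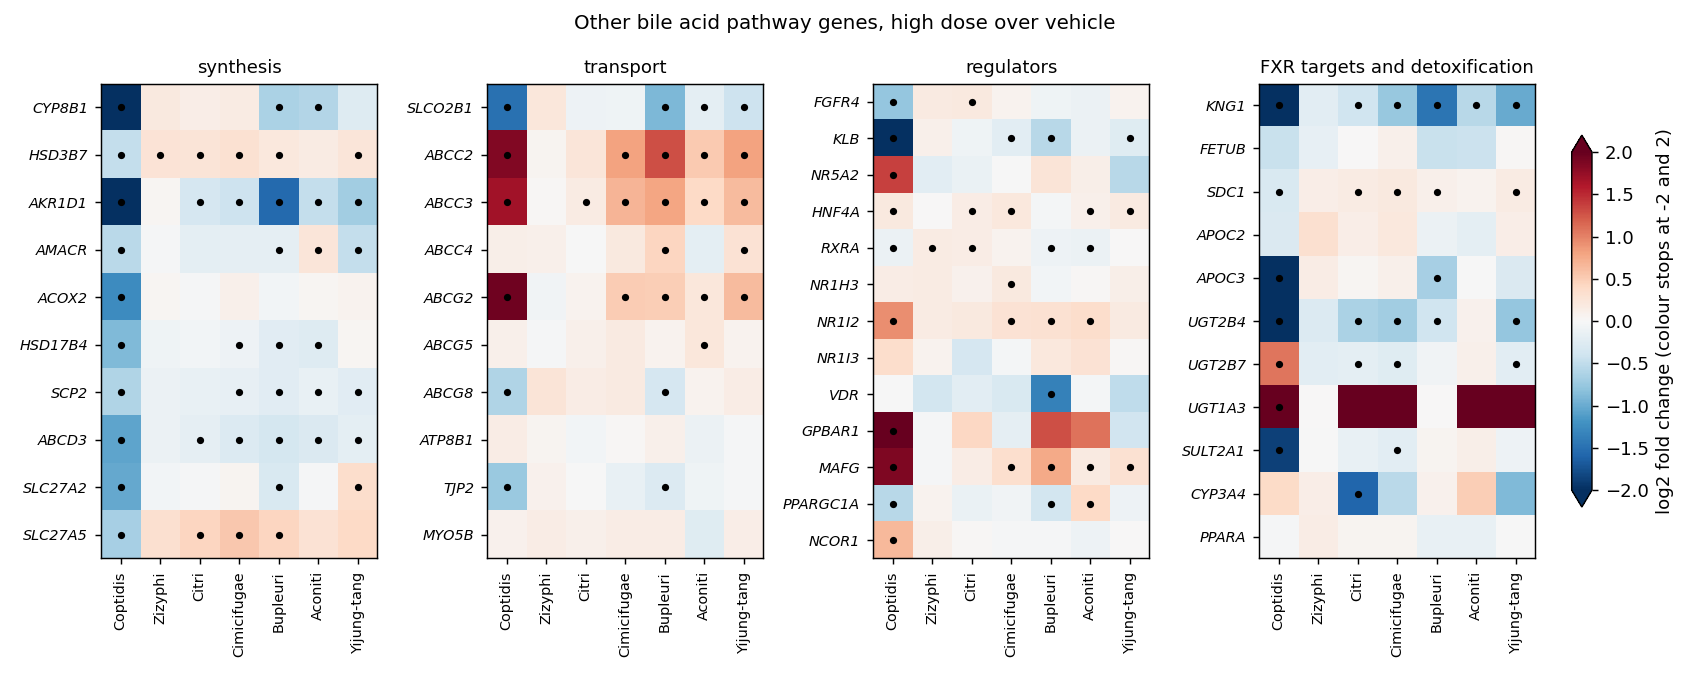
Log2 fold change at the high dose of 7 extracts against vehicle for the 44 tested genes of the 4 other lists (colour), with dots on calls at an adjusted p under 0.05. All 10 synthesis genes are lower in the Coptidis column, and ABCC2 is higher in 5 of 7 columns.

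Across the 25 group means, NR1H4 and NR0B2 ran opposite to each other (Pearson r = -0.75), and NR1H4 and ABCB4 ran together (r = 0.77), as did CYP7A1 and ABCB4 (r = 0.70). Between SLC51A and SLC51B r was -0.04. These are descriptions over groups that share vehicle, sets and depth. Banhasasim-tang, with 1 library per dose, is among the groups. Its library at 20 µg/mL (GC correlation 0.744) held the highest group mean of CYP27A1 and the lowest of BAAT, SLC51B and CYP7A1. The part of that library in the correlations given here was not tested. Ordered by mean, 7 of 24 neighbouring groups did not overlap for NR1H4, 4 for CYP27A1, 3 each for NR0B2, SLC51A and ABCB4, 2 each for BAAT and SLC51B, and none for CYP7A1. The same count over all tested genes was not made, so these counts have no background. Groups of a single library, as with Banhasasim-tang, part more easily. The top gap of CYP27A1 set the Banhasasim-tang library at 20 µg/mL (323 CPM) apart from the next group. The genes whose pattern over the 25 groups was most like that of NR1H4 were ACSM2B (r = 0.991) and HPR (0.987), and for NR0B2 they were GOT1 (0.919) and CXCL16 (0.910). For CYP27A1 they were ECI1 (0.981) and FLOT2 (0.979), for ABCB4 GREB1L (0.944) and C8B (0.921), and for CYP7A1 USP28 (0.924) and GNPAT (0.914). BAAT was closest to YPEL2 (0.897) and CD24 (0.852), SLC51B to AKIRIN2 (0.822) and ZNF44 (0.807), and SLC51A to SPAG4 (0.784) and C11orf80 (0.734).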

How the data were processed

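RNA of HepG2 cells was sequenced as 100 bp paired-end reads from directional libraries, per the labels. The authors deposited 1 table of expected counts from RSEM, by gene and not normalized. RSEM 1.3.3, STAR 2.7.3a, Trim Galore 0.6.5, FastQC 0.11.9 and the build GRCh38 are named in the submitters' processing notes. Neither the annotation release nor the strand setting of counting is given in the sources used here. DMSO is given as 0.1% in the labels of samples and as 2% in the design text. The top dose was the one that inhibited growth by 20% where that lay below 500 µg/mL, per the labels, and samples with low RNA concentration were left out by the authors. The table has 267 columns, and 207 that match no sample described here were not used. Expected counts, 8.75% of them not whole, were rounded.

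Differences were tested with edgeR 4.0.16 in R 4.3.3 (TMM scaling, filterByExpr by group, glmQLFit with robust estimation, glmQLFTest). One fit held the 57 libraries of 22 replicated groups, so that all shared the estimate of spread (residual degrees of freedom 35, common BCV 6.14%). The filter left out 44000 genes. P-values were adjusted over the 16675 tested genes of each comparison by the Benjamini-Hochberg method, with calls made at an adjusted p under 0.05. The SE is approximate, from the fold change on the log2 scale over the root of the F statistic. Levels are TMM-scaled CPM, computed here from the counts. For Banhasasim-tang, log2 ratios to the mean of vehicle libraries are given (prior count 2). Intervals and floors (3 counts) cover counting error only. The fit was tested on simulated data. No replicate pair agreed within sampling noise (chi-square per degree of freedom 2.09 to 99.4 over 48 pairs), so each library was counted once.

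The 10 members and the gene lists were chosen with earlier results of these data known. All members are named, and from each of 4 lists up to 2 called genes with the largest change per high dose at a mean of at least 1 CPM in either group. For each tested member the 2 genes most correlated over 25 group means are named. Positions come from GENCODE 29 on GRCh38 and promoter sequences from RefSeq on GRCh38.p14. Alternatives were DESeq2 1.42.0, its size factors (RLE) in edgeR, no filter, separate fits per comparison, a replicate block, GC and length offsets per library, and leaving out each library. The labels do not say that replicate numbers mark a shared batch. In comparisons with 3 shared numbers the deviations of same-numbered libraries correlated at -0.051 to 0.070, and with 2 shared numbers at 0.136 at most (Zizyphi, high against low dose), so the numbers were not taken to pair libraries. Genes named beyond the rule for the lists, FGFR4 and HNF4A with other extracts among them, were chosen after their values were seen.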

Additional observations from a re-analysis of the deposited data

Results flagged for a closer look

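In 11 cases the change between the high and the low dose differed between the 2 extracts of a set, by a test of the difference itself (edgeR, log2 scale, first extract minus second, adjusted over all tested genes). Between Coptidis and Zizyphi, NR1H4 differed by -2.95 ± 0.13 (SE; adjusted p = 6.2e-24), CYP7A1 by -2.41 ± 0.98 (adjusted p = 0.038), ABCB4 by -0.78 ± 0.16 (adjusted p = 9.8e-05), CYP27A1 by -0.55 ± 0.11 (adjusted p = 2.7e-05), SLC51A by 0.81 ± 0.22 (adjusted p = 0.0016) and NR0B2 by 0.36 ± 0.15 (adjusted p = 0.040). The CYP7A1 and NR0B2 differences were each lost in 4 of 9 fits that left out 1 library (-2.25 to -1.43, adjusted p = 0.078 to 0.25, and 0.23 to 0.27, adjusted p = 0.18 to 0.25). Between Citri and Cimicifugae, both given at 20 and 500 µg/mL, SLC51A differed by -0.77 ± 0.16 (adjusted p = 0.0036) and NR1H4 by 0.42 ± 0.09 (adjusted p = 0.0029). Between Bupleuri and Aconiti, NR0B2 differed by 0.46 ± 0.12 (adjusted p = 0.0032), ABCB4 by -0.37 ± 0.13 (adjusted p = 0.034) and NR1H4 by -0.25 ± 0.09 (adjusted p = 0.033). The last 2 were lost in 6 and 7 of 12 fits that left out 1 library (adjusted p = 0.055 to 0.12 and 0.055 to 0.11). Without the Bupleuri library at 11.2 µg/mL that stands apart in transcript length, these 3 differences were 0.66 (adjusted p = 2.4e-07), -0.49 (adjusted p = 0.0014) and -0.20 (adjusted p = 0.075). Doses differed between the extracts in the first and the third pair.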

How the results depend on the processing

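Of 80 calls of members, 52 were kept under every setting run and 28 were lost under at least 1, and 27 results gained a call under some setting. The 2 results that changed direction were CYP27A1 with Coptidis at 56 and 11.2 µg/mL against vehicle, at -0.12 (adjusted p = 0.029) and -0.0068 (adjusted p = 0.95) with GC and length offsets. With those offsets low doses against vehicle gave 4 calls of members in place of 7, and Citri at the high dose 0 in place of 1. Without a filter Zizyphi at the high dose gave 1 in place of 0 and Citri 0. Separate fits gave 17 calls in place of 11 over the medium doses, and at the high dose 1 for Zizyphi, 2 for Citri and 5 in place of 3 for Yijung-tang. The cause of these shifts was not tested. Leaving out 1 library at a time gave 18 to 24 calls at the high dose (21 with all libraries), 8 to 16 at the medium (11), 4 to 10 at the low (7), 14 to 20 between high and low dose (18), 12 to 13 between extracts of a set (12) and 8 to 11 for differences of change (11). Per extract at the high dose it gave 0 to 1 for Zizyphi, 0 to 2 for Citri and 1 to 3 for Yijung-tang, and between high and low dose 2 to 4 for Cimicifugae, 1 to 3 for Aconiti and 1 to 3 for Yijung-tang. With RLE scaling the median change of all genes moved by less than 0.1 on the log2 scale in every comparison.

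The replicate block changed 2 results, both gained: ABCB4 with Cimicifugae at 500 µg/mL (-0.24, adjusted p = 0.033) and BAAT with Yijung-tang at 100 µg/mL (-0.61, adjusted p = 0.045). The libraries share only a number, and no other call of a member changed with the block, where high doses gave 22 calls of members.

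Depth limits CYP7A1, ABCB11 and FGF19, for which few or no counts per library were read. The 1 library per dose of Banhasasim-tang allows no test.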
